A study of Mus musculus with 40 samples.

Results

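The melanocyte pigmentation and melanosome genes were 34 protein-coding genes chosen by symbol, from the regulators Mitf and Irf4 through the melanin-forming enzymes to the machinery that builds and moves the melanosome. All 34 were found among the 51789 Ensembl genes of the count table, of which 27946 had at least 1 count in a library. Their mRNA was measured by QuantSeq 3′ sequencing in 40 libraries of cultured mouse melanoma cells, 2 libraries for each of 20 groups. The study asked how Bmal1, a transcription factor of the circadian clock, acts in melanoma.

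B16-F10 cells came as Ctrl and Bmal1 KO, each a single clone. YUMM2.1 carries Braf V600E, loss of 1 copy of Cdkn2a and a stabilized β-catenin, YUMM1.7 carries Braf V600E with loss of Cdkn2a, and aC3 is a single CRISPR clone of YUMM2.1 made to lack Bmal1. These 3 lines each came with an empty vector (EV), wild-type Bmal1 (WT) or a Bmal1 without the basic helix-loop-helix region that binds DNA (dHLH). In YUMM2.1 and aC3 the vector was a lentivirus with GFP, and cells were sorted for GFP. A further 9 groups were YUMM2.1 cells with EV, WT or dHLH that also carried a control hairpin (shNC) or 1 of 2 hairpins against Myh9, a non-muscle myosin (shMyh9#2 and shMyh9#4). The hairpin cells had been selected with puromycin. Each genotype was 1 line, so genotype and the rest of a line's history cannot be told apart.

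Melanin is made inside melanosomes, organelles related to lysosomes. Mitf, a basic helix-loop-helix leucine zipper factor, switches on most pigment genes in melanocytes by binding E-boxes such as CACGTG and CATGTG. Pmel fibrils form the scaffold of the young organelle, and the copper enzyme Tyr together with Tyrp1 and Dct turns tyrosine into melanin on it. Ion and solute carriers (Slc45a2, Oca2, Slc24a5, Atp7a, Tpcn2) set its pH and copper supply, and Mc1r on the cell surface raises Mitf through cyclic AMP. The AP-3, BLOC and HOPS complexes with Rab32 and Rab38 deliver the cargo, many of them in other cells as well, and Rab27a, Mlph and Myo5a tether the ripe melanosome to actin.

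Library totals ran from 3643332 to 22970049 counts with a median of 10021164.5. Levels are given as CPM, the counts scaled to a common library size with TMM factors over all 40 libraries. With 2 libraries a group, an exact two-sided permutation test of 1 gene cannot give a p below 0.333, so the tests are edgeR quasi-likelihood fits over all genes with Benjamini-Hochberg adjustment, and a gene was called at an adjusted p under 0.05. Nothing in the labels says whether the 2 libraries of a group came from separate cultures. The paper calls the B16-F10, YUMM2.1 and some hairpin libraries biological replicates or duplicates, and the aC3 libraries duplicates. For YUMM1.7 it also gives biological replicates, without naming a construct. How they were kept apart is not described, so these p-values measure the spread between libraries, which may be technical in part. In bulk RNA, fewer cells of a type and less RNA per cell cannot be told apart.

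Some libraries stood apart, and some labels could not be checked by mRNA. In B16-F10 Ctrl, Arntl, the gene of Bmal1, was at 15.2 and 10.7 CPM, and where the label reads Bmal1 KO it was at 13.3 and 11.5 CPM (log2 difference -0.07, SE 0.26, edgeR adjusted p = 0.923), although a 3′ read can lie outside an edited stretch and then checks nothing. Arntl mRNA was also compared under other labels. It was at 33.1 and 30.5 CPM in aC3 EV, the clone made to lack Bmal1, against 15.9 and 13.9 CPM in YUMM2.1 EV (1.08, SE 0.23, edgeR adjusted p = 0.0205), and at 18.2 and 17.5 CPM in the aC3 libraries labelled WT, below aC3 EV (-0.83, SE 0.16, edgeR adjusted p = 0.00356). In the YUMM2.1 libraries labelled WT it was at 13.9 and 18.3 CPM (0.10 to EV, SE 0.24). With dHLH it was higher in YUMM2.1, at 51.1 and 35.4 CPM (1.54, SE 0.24, edgeR adjusted p = 0.00952). Whether reads of a construct or of an edited allele entered these counts was not tested. The paper checked Bmal1 by immunoblot in the B16-F10 and YUMM2.1 clones, and with the constructs in YUMM2.1 and aC3. That measures the protein, which mRNA counts do not. In YUMM2.1 and aC3 it also used a clock reporter and the mRNA of Bmal1 target genes. WT, dHLH, the state of aC3 and Bmal1 KO in B16-F10 are therefore used as labelled. By chi-square per degree of freedom, the 2 libraries labelled Bmal1 KO differed more from each other than those of any other group (89.4 against at most 20.5). That measure grows with depth, and these 2 libraries were the deepest. By the correlation of log2 CPM they were not the least alike (0.987, against 0.980 in YUMM2.1 dHLH with shMyh9#4). In the study's supplementary table of normalised counts, the libraries labelled YUMM2.1 EV replicate 2 and YUMM2.1 WT replicate 1 stand under each other's names. The labels were kept as deposited, and values that rest on these libraries are also given with the 2 labels exchanged and with both left out. Leukocyte markers (6 genes) summed to at most 6.01 CPM, keratinocyte markers (5 genes) to at most 5.87 CPM and endothelial markers (4 genes) to at most 26.4 CPM in any library.

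Promoter stretches of some members are shown before the expression values, since pigment enzymes and trafficking genes differ in the E-box they hold. Only genes that hold a motif marked below are shown, whether or not their level differed between groups. RefSeq gave a window of 250 bases before to 50 bases after the start for 29 of the 34 genes on GRCm38.p6, the build of mm10. Pmel, Mlana, Slc45a2, Gpr143 and Rab38 had no entry. Mitf and Lyst had a window that held none of the motifs searched, and they are not shown. Each stretch below runs 5′ to 3′ along the gene from 160 bases before the start to 20 bases after it. Capitals mark CATGTG, or its reverse complement CACATG, in these 5 genes of the pigment enzymes, a carrier and a receptor, and in Slc24a5 they run on through TGANTCA, an AP-1 site that overlaps it.
Tyr, chr7:87493493-87493672 (- strand): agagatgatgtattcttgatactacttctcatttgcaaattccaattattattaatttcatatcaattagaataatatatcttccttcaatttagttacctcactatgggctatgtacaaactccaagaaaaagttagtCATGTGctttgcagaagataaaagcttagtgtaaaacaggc
Tyrp1, chr4:80834053-80834232 (+ strand): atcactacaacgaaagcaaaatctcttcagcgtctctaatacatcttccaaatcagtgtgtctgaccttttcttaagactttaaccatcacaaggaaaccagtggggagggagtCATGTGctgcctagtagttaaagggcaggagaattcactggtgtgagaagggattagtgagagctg
Dct, chr14:118052227-118052406 (- strand): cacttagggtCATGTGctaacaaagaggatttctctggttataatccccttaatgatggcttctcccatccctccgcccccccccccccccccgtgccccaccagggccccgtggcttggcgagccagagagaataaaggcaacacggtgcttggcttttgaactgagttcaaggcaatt
Slc24a5, chr2:125067967-125068146 (+ strand): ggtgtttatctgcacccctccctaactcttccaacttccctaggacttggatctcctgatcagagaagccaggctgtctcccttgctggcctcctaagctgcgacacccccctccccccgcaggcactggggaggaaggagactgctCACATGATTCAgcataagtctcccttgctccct
Mc1r, chr8:123406922-123407101 (+ strand): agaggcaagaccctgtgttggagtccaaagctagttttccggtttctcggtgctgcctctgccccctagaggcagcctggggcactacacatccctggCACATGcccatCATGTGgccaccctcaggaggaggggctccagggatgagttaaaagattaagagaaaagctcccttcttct

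In 3 genes of melanosome biogenesis, capitals mark the palindrome CACGTG instead, the E-box that Mitf, its relatives and the Bmal1-Clock pair can all bind. In Gpnmb, whose level changed with the Bmal1 constructs, they mark TGANTCA. Bloc1s1 also holds CATGTG, at -190, outside the stretch shown.
Hps3, chr3:20035291-20035470 (- strand): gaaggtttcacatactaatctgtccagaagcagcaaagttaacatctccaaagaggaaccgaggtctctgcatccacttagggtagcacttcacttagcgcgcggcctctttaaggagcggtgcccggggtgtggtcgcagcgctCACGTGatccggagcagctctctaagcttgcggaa
Vps33a, chr5:123572996-123573175 (- strand): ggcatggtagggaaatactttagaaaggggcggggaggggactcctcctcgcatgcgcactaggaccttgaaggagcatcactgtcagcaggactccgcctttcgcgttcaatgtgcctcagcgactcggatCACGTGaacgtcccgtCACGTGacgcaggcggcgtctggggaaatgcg
Bloc1s1, chr10:128923505-128923684 (- strand): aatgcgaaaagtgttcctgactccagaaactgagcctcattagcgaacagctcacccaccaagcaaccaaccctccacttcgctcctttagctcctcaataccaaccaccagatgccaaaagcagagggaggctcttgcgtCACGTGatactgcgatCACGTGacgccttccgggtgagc
Gpnmb, chr6:49036358-49036537 (+ strand): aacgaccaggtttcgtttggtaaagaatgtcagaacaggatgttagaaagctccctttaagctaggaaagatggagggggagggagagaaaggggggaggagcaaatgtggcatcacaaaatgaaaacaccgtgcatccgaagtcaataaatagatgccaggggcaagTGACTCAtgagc

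Searched on both strands in the full windows, CATGTG lay in 9 of 29 genes (31%), against 15.9% of 27025 genes with a window. It was in 3 of 3 enzymes, in 2 of 4 carriers with a window and in 2 of 3 receptors, but in 2 of 16 genes of biogenesis and transport. CACGTG lay in 10 of 29 (34.5%), against 8.09% of all genes, and here the order turned: 8 of 16 genes of biogenesis and transport held it (Hps1, Hps3, Hps5, Vps33a, Bloc1s1, Bloc1s3, Mlph and Rab27a) and 0 of 3 enzymes. The joint class of biogenesis and transport was formed after the matches were seen. Vps33a and Bloc1s1 each held CACGTG at 2 places shortly before the start, at -28 and -12 in Vps33a and at -19 and -3 in Bloc1s1. TGANTCA was in 3 of 29 (10.3%), close to the 8.97% of all genes. A match is a run of letters and not a measured binding site.

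B16-F10 stood apart from the other lines. The 34 genes took 2.59% to 3.41% of all counts in the 4 B16-F10 libraries (median 3.12%) and 0.0554% to 0.0786% in the other 36 (median 0.0675%). For 23 of the 34, all 4 B16-F10 libraries lay above all 36 others, and for Bloc1s1 all 4 lay below. The other 10 of the 34 overlapped (Rab32, Hps1, Hps4, Hps5, Hps6, Bloc1s3, Tpcn2, Vps33a, Ednrb and Irf4). Of the 31 genes with a mean of at least 10 counts, 22 lay above and 1 below, where 10.1% and 10.5% of all 14144 such genes did. Tyr, Tyrp1, Dct, Pmel, Mlana, Slc45a2, Oca2, Slc24a5, Gpr143 and Trpm1 reached that mean only through B16-F10. For them, lying above was nearly fixed by the cut. Ednrb, the endothelin receptor of melanoblasts, had no count in any of the 40 libraries, and Irf4, a partner of Mitf at the Tyr gene, had none in 37 and at most 11 counts. The heat map of all members by library shows the B16-F10 block at the left.

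**Figure D1:**
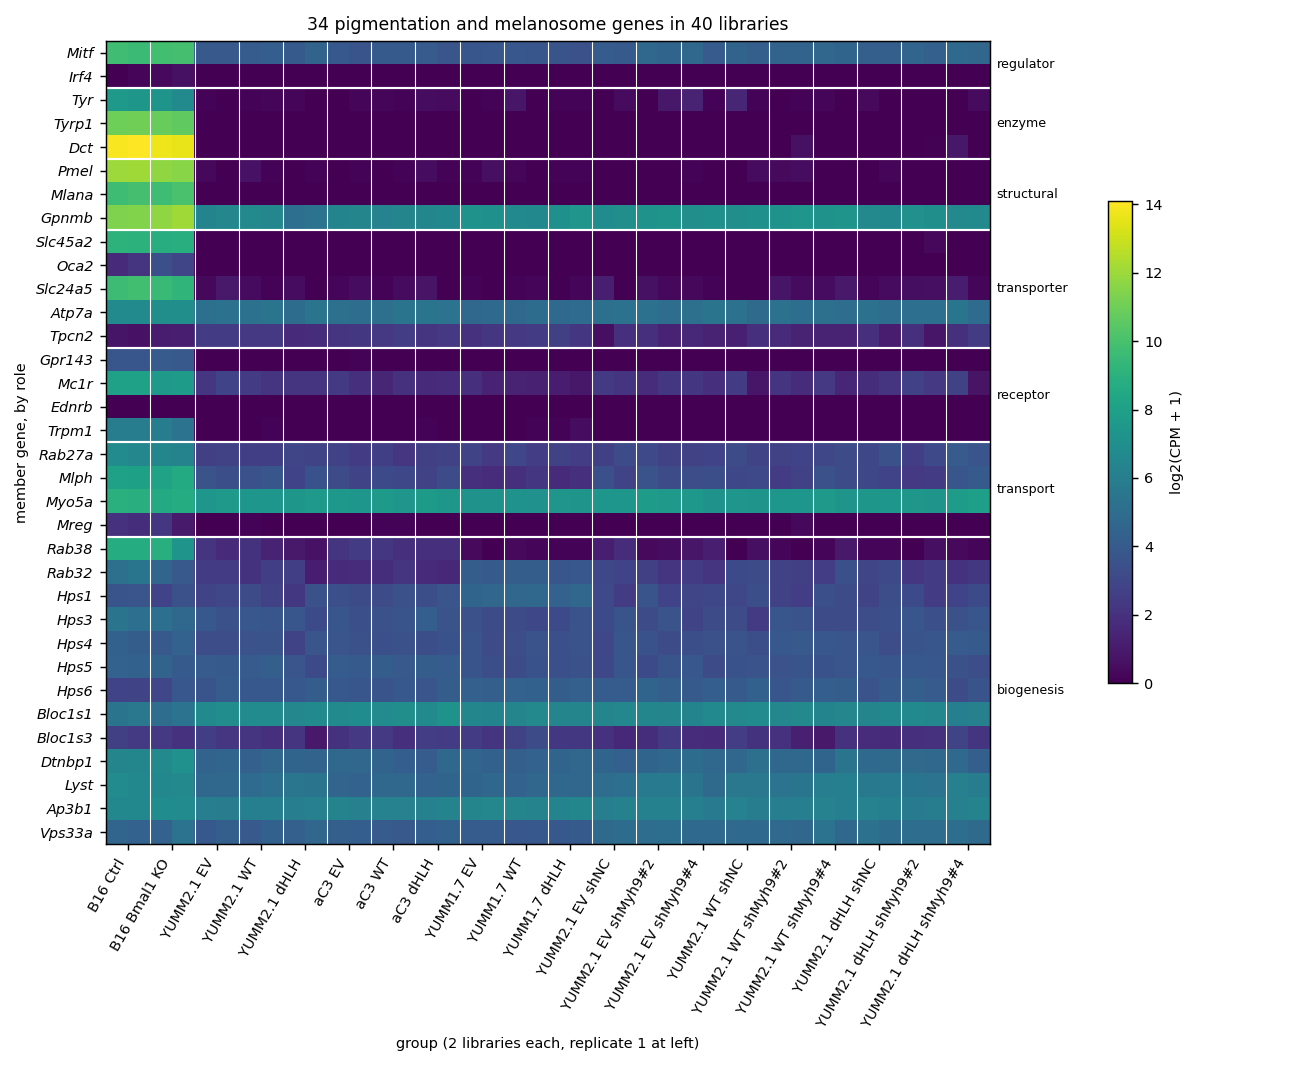
Levels of the 34 genes as log2(CPM + 1), colour from low to high, with genes in rows by role and the 40 libraries in columns by group. The 4 B16-F10 libraries hold the high values of the enzymes, Pmel and Mlana, which sit at or near 0 in the other 36 columns.

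The enzymes were nearly confined to B16-F10. Dct, the dopachrome tautomerase, was at 16070.1 and 17377 CPM in B16-F10 Ctrl, and Tyrp1, which stabilizes tyrosinase, was at 1994 and 2054 CPM. Dct had no count in 33 of the 36 other libraries and 11 counts in all of them together, and Tyrp1 had none in any. Against YUMM2.1 EV, where both had no count in either library, Dct was at least 118759-fold and Tyrp1 at least 14375-fold higher, with the floor set at 3 counts over the group. Tyr, the rate-limiting enzyme, was at 193 and 173 CPM in B16-F10 Ctrl and at 0.0830 and 0 CPM in YUMM2.1 EV, 1 count in all, which gave a ratio of 3900 with a 95% counting interval of 700 to 154052. For these 3 genes no B16-F10 library overlapped any of the 36. With the doubted YUMM2.1 labels exchanged the bounds were 132294 for Dct and 16013 for Tyrp1 and the Tyr ratio was 2172, and with both doubted libraries left out, which leaves 1 EV library, they were 67106, 8123 and 2204.

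Of the structural proteins, Pmel, the fibril protein, was at 4129.6 and 4291 CPM in B16-F10 Ctrl and at 0.249 and 0 CPM in YUMM2.1 EV (3 counts), a ratio of 29904 with an interval of 10232 to 145009. In the 36 libraries Pmel reached at most 7 counts, and it shares its locus with Cdk2 and Dgka on the other strand. Mlana, which escorts Pmel, was at 821 and 982 CPM against no count in all 36, at least 6399-fold higher than in YUMM2.1 EV. Exchanging the doubted labels gave 9994 for Pmel and at least 7128 for Mlana, and leaving both libraries out gave 16898 and at least 3616. Gpnmb, a glycoprotein related to Pmel that other cells also make in lysosomes, was different in kind, because it was read in every library: 2679 and 2702 CPM in B16-F10 Ctrl, 81.2 and 90.1 in YUMM2.1 EV, 79.7 and 82.8 in aC3 EV, and 141 and 135 in YUMM1.7 EV. Its log2 difference between B16-F10 Ctrl and YUMM2.1 EV was 4.96 (SE 0.14, edgeR adjusted p = 6.24e-14), 4.90 with the labels exchanged and 5.02 with both doubted libraries left out.

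Carriers split in the same manner. Slc45a2, which holds the melanosome near neutral pH, was at 555 and 537 CPM in B16-F10 Ctrl and had no count in 35 of the 36 other libraries. Slc24a5, a potassium-dependent exchanger of sodium and calcium, was at 799.6 and 889 CPM in B16-F10 Ctrl and at 0.249 and 0.971 CPM in YUMM2.1 EV (12 counts), a ratio of 1498 with an interval of 858 to 2900 (2862 with the doubted labels exchanged, 3387 with both libraries left out). Oca2, the chloride channel of the melanosome, was low even in B16-F10 Ctrl, at 2.24 and 3.30 CPM, and had no count in any of the 36 libraries of the other lines. Atp7a, the copper pump that loads tyrosinase and works in most cells, was at 102 and 105 CPM against 36.2 and 38.1 in YUMM2.1 EV and 24.7 and 27.1 in YUMM1.7 EV. Tpcn2, an endolysosomal cation channel, ran the other way, at 0.763 and 0.630 CPM in B16-F10 Ctrl and 4.401 and 4.64 CPM in YUMM2.1 EV (log2 difference -2.70, SE 0.30, edgeR adjusted p = 9.67e-07).

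Mitf itself (ENSMUSG00000035158, chr6:97807052-98021349 on mm10, + strand, GENCODE M21) was lower in the other lines but had counts in every library. It was at 864 and 790.2 CPM in B16-F10 Ctrl, 14.4 and 14.2 in YUMM2.1 EV, 13.8 and 11.9 in aC3 EV, and 12.6 and 13.1 in YUMM1.7 EV, and no library of the 36 exceeded 26.8 CPM. The log2 difference was 5.83 against YUMM2.1 EV (SE 0.16, edgeR adjusted p = 4.63e-14) and 6.02 against YUMM1.7 EV (SE 0.16, adjusted p = 4.1e-14). Sox10, which drives Mitf in melanocytes and Schwann cells, was at 367 and 385 CPM in B16-F10 Ctrl and at 501 and 484 CPM in YUMM2.1 EV (log2 difference -0.41, SE 0.19, edgeR adjusted p = 0.0936), but at 1.52 and 1.12 CPM in YUMM1.7 EV. Pax3 was at 437 and 438 CPM in B16-F10 Ctrl, 46.6 and 41.0 in YUMM2.1 EV, and 103 and 105 in YUMM1.7 EV, so that it too was highest in B16-F10 Ctrl (log2 differences 3.30 and 2.08). YUMM2.1 EV and YUMM1.7 EV had Mitf at similar levels (log2 difference -0.19, SE 0.15, edgeR adjusted p = 0.37), while Sox10 differed by -8.56 on the log2 scale.

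Among receptors, Mc1r, the melanocortin receptor, was at 263 and 270.3 CPM in B16-F10 Ctrl against 3.74 and 6.26 in YUMM2.1 EV and 2.85 and 1.498 in YUMM1.7 EV (log2 differences 5.74, SE 0.25, and 6.94, SE 0.27). Trpm1, a cation channel whose gene hosts a pigment cell microRNA, was at 59.1 and 59.3 CPM, and Gpr143, a melanosomal receptor, at 12.5 and 12.4 CPM in B16-F10 Ctrl. Both had no count in YUMM2.1 EV and YUMM1.7 EV. Of the transport genes, Mlph, the linker between Rab27a and Myo5a, was at 265 and 257 CPM in B16-F10 Ctrl, 10.96 and 9.28 in YUMM2.1 EV and 2.85 and 2.43 in YUMM1.7 EV. Rab27a was at 111 and 89.9 against 5.40 and 5.50 CPM in YUMM2.1 EV (log2 difference 4.18, SE 0.22). Myo5a, a motor of many cell types, was at 495 and 479 against 168 and 187 CPM (1.44, SE 0.10). No library of B16-F10 overlapped any of the 36 for these 3 parts of the tether. Mreg, a regulator of melanosome shedding, was at 3.05 and 2.52 CPM in B16-F10 Ctrl and had no count in 32 of the 36 other libraries.

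Biogenesis genes were read in every line and differed in size and in sign. Rab38, which sorts tyrosinase to melanosomes, was at 421 and 426 CPM in B16-F10 Ctrl, 3.40 and 2.37 in YUMM2.1 EV, and 0.267 and 0 in YUMM1.7 EV (3 counts). Its close relative Rab32 was at 35.99 and 42.7, at 4.57 and 4.75 and at 16.8 and 15.1 CPM in the same 3 groups, so YUMM1.7 EV lay lowest for Rab38 and between the others for Rab32. Lyst, the Chediak-Higashi gene that controls the size of lysosome-related organelles, was at 109 and 93.5 CPM against 26.2 and 26.5 in YUMM2.1 EV (log2 difference 1.92, SE 0.13, edgeR adjusted p = 2.06e-09). Dtnbp1, a BLOC-1 subunit, was at 83.0 and 87.3 against 21.3 and 23.3 CPM (1.92, SE 0.20), and Hps3, of BLOC-2, at 41.3 and 34.9 against 14.0 and 10.5 CPM (1.62, SE 0.26). Both, like Lyst, lay above all 36 other libraries. Lower in B16-F10 Ctrl were Hps6, also of BLOC-2 (6.20 and 6.35 against 11.5 and 16.2 CPM, log2 difference -1.15, SE 0.26), and Bloc1s1, a subunit shared by BLOC-1 and the lysosome-positioning complex BORC (41.0 and 48.5 against 102 and 117 CPM, log2 difference -1.31, SE 0.16). Bloc1s1 overlaps Rdh5 on the same strand.

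In counts, 29 of 32 genes tested were called between B16-F10 Ctrl and YUMM2.1 EV, 26 higher and 3 lower in B16-F10 (Tpcn2, Hps6, Bloc1s1), where 48.9% of all 16091 genes were called, 22.1% higher and 26.8% lower. With the doubted labels exchanged and with both libraries left out, the differences were 5.74 and 5.81 for Mitf, 6.02 and 6.13 for Mc1r, 4.57 and 4.54 for Mlph, 1.86 and 1.92 for Lyst, -2.61 and -2.67 for Tpcn2, -1.02 and -0.90 for Hps6, and -1.27 and -1.22 for Bloc1s1. Of these 32, 11 passed the filter on low counts only through B16-F10 and so had to differ. Among the 21 that also passed it in YUMM2.1 libraries alone, 15 were higher, 3 lower and 3 (Hps5, Bloc1s3, Vps33a) not called. With the labels of the doubted YUMM2.1 libraries exchanged 29 were called, without Hps1 and with Vps33a, and with both left out 28. Hps1 was the weakest call (log2 difference 0.83, SE 0.33, adjusted p = 0.0499) and was lost without any 1 of the 4 libraries (0.77 to 0.87). Against YUMM1.7 EV, 29 of 32 were called again, 25 higher and 4 lower with Hps1 added to the lower set (-0.93, SE 0.31, adjusted p = 0.021), where 49.6% of all genes were, 24.5% higher and 25% lower. Of the 20 that passed the filter in YUMM1.7 alone, 13 were higher and 4 lower. Hps1 was lost here too without any 1 library (-0.99 to -0.90), as was Hps4 (0.84, SE 0.25) without B16-F10 Ctrl replicate 1 (0.70) or YUMM1.7 EV replicate 2 (0.63). Both comparisons use the same Ctrl libraries, and each line is 1 line.

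The plot of control libraries by line shows the 20 genes with a count in every one of them.

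**Figure D2:**
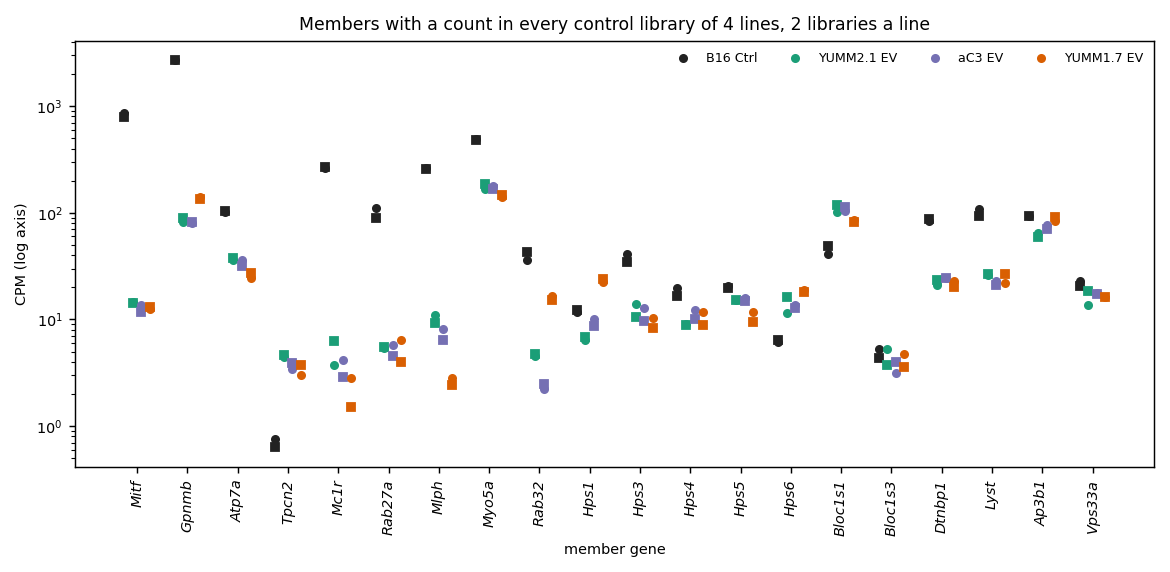
CPM (log axis) of the 20 members with a count in every control library, for B16-F10 Ctrl, YUMM2.1 EV, aC3 EV and YUMM1.7 EV, with a point for each of the 2 libraries. Mitf, Mc1r, Mlph and Gpnmb are far higher in B16-F10 Ctrl, whereas Bloc1s1, Hps6 and Tpcn2 are lowest there.

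Outside the 34 genes, a list of 59 further genes of the pathway (upstream factors and signals, further sorting genes, carriers and targets) gave 58 with a match, and 53 were tested between lines. Between B16-F10 Ctrl and YUMM2.1 EV 24 were higher and 12 lower in B16-F10, where 22.1% and 26.8% of all genes were. Pax3 (3.30), and Met (3.62) and Cdk2 (2.72), both known as Mitf targets, were among the higher, and Anxa2 (-2.92), Ctsb (-1.42) and Kif13a (-1.22) among the lower. Cdk2 overlaps Pmel on the other strand, and the strand setting of the counting is not known. Whether reads of Pmel entered the Cdk2 counts was not tested. The 7 fibroblast markers summed to 27.5 to 47.9 CPM in B16-F10, with Lum at 0 in all 4 libraries, and to 2893 to 3209 CPM in YUMM1.7. Their part in the differences between lines was not tested.

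YUMM1.7 EV and YUMM2.1 EV, both nearly without pigment enzymes, differed in 10 members, 4 higher and 6 lower in YUMM1.7 EV, out of 21 that passed the filter in YUMM2.1 alone (the other 11 of the 32 entered the fit only through other lines, and none was called), where 32.7% of all genes were called, 14.7% higher and 18% lower. Higher in YUMM1.7 EV were Rab32 (1.74, SE 0.37, edgeR adjusted p = 0.0015), Hps1 (22.3 and 23.7 against 6.39 and 6.90 CPM, log2 difference 1.76, SE 0.34), Gpnmb (0.66, SE 0.12) and Ap3b1, a subunit of AP-3 (0.46, SE 0.09). Lower were Mlph (-1.97, SE 0.29), Rab38 with 3 counts against 63 (21.6-fold, counting interval 7.05 to 107), Mc1r, Atp7a, Myo5a and Bloc1s1. Rab32 and Rab38, which can stand in for each other in part, differed in opposite directions. Exchanging the YUMM2.1 labels left 9 calls, without Myo5a and Bloc1s1 and with Hps5 (-0.57), and leaving both doubted libraries out left 7, without Myo5a, Bloc1s1 and Mc1r (-0.81). Mc1r (-1.20, SE 0.30) was lost without YUMM2.1 EV replicate 2 (-0.81) or YUMM1.7 EV replicate 2 (-0.79), Atp7a (-0.55, SE 0.14) without YUMM1.7 EV replicate 1 (-0.49), Myo5a (-0.33, SE 0.10) without YUMM2.1 EV replicate 2 (-0.25) or either YUMM1.7 EV library (-0.33 and -0.30), and Bloc1s1 (-0.41, SE 0.15) without any 1 library (-0.50 to -0.32).

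For aC3 EV against its parent YUMM2.1 EV, no member was called by edgeR (0 of 32, with 2 at an unadjusted p under 0.05 and 0 by DESeq2, though 11 of the 32 passed the filter only through other lines and had few or no counts in both groups), where 1.95% of all genes were, 0.423% higher and 1.53% lower. Exchanging the doubted labels or leaving both libraries out gave 0 as well. Mitf (-0.17, SE 0.15), Gpnmb (-0.08, SE 0.12) and Lyst (-0.26, SE 0.13) gave small log2 differences, and the libraries of the 2 groups overlapped only for Gpnmb.

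In B16-F10, the libraries labelled Bmal1 KO kept the full pigment set. Dct was at 13768 and 12351 CPM there against 16070.1 and 17377 in Ctrl (log2 difference -0.36, SE 0.16, edgeR adjusted p = 0.457). Pmel was at 3456 and 3059.8 against 4129.6 and 4291 CPM (-0.38, SE 0.16, adjusted p = 0.446), Tyr at 154 and 108 against 193 and 173 (-0.49, SE 0.22, adjusted p = 0.458) and Tyrp1 at 1818 and 1577 against 1994 and 2054 (-0.26, SE 0.17, adjusted p = 0.561). For these 4 genes both libraries labelled Bmal1 KO lay below both Ctrl libraries. Mitf lay above in both, at 905 and 992 against 864 and 790.2 CPM (0.19, SE 0.16, adjusted p = 0.655), as did Gpnmb, at 3469.9 and 4285 against 2679 and 2702 CPM (0.52, SE 0.18, adjusted p = 0.366). Mlana overlapped, at 831 and 1043 against 821 and 982 CPM (0.05, SE 0.20).

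By edgeR, 0 of 32 tested members were called, with 3 at an unadjusted p under 0.05 (Oca2, Rab32, Gpnmb), where 0.44% of all 14556 genes were (0.22% in each direction), and DESeq2 called 1. That was Oca2, at 9.71 and 6.71 against 2.24 and 3.30 CPM (log2 difference 1.56, SE 0.36, edgeR adjusted p = 0.211). Rab32 was at 23.5 and 14.0 against 35.99 and 42.7 CPM (-1.08, SE 0.29, adjusted p = 0.277). Both libraries labelled Bmal1 KO lay below both Ctrl libraries for 14 of the 32 and above them for 10, where 23.4% and 24.3% of all genes did. Those 14 included all 3 enzymes, Pmel, Slc45a2, Slc24a5 and Mc1r, and the 10 included Mitf, Gpnmb, Mlph, Oca2 and Gpr143. The median log2 difference over the 32 was -0.23, against -0.01 over all genes tested.

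With all 4 libraries 64 of 14556 genes were called, and 0 members. Both counts, of all genes and of members alike, rested on which library labelled Bmal1 KO was kept. Without its replicate 1, 19 members were called (6 higher, 13 lower, among 6612 genes in all), and without its replicate 2, 8 were called (2 higher, 6 lower, among 2213 genes), while leaving out either Ctrl library gave 0. Called without either of the 2 were Dct, Rab32 and Mc1r, lower, and Oca2 and Gpnmb, higher. Rab38 shows the split between the 2 libraries, at 467 and 156 CPM against 421 and 426 in Ctrl. Trpm1 (61.9 and 39.5), Hps6 (6.85 and 13.1) and Mreg (3.67 and 1.06 CPM) also had replicate 2 on its own. Of the further pathway genes, 1 of 53 was called, where 0.44% of all genes were. It was Cited1, a cofactor made in melanocytes, at 80.4 and 70.2 CPM against 17.9 and 21.1 in Ctrl (1.94, edgeR adjusted p = 0.0357).

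**Figure D3:**
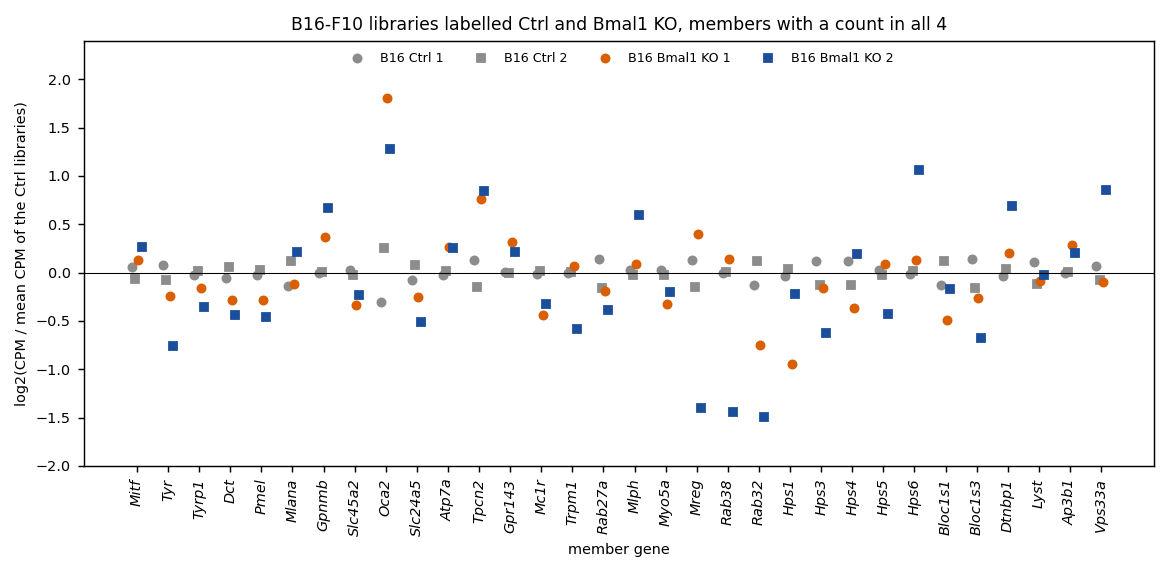
Log2 ratio to the mean of the Ctrl libraries for the 32 members tested in B16-F10, with a point for each of the 2 Ctrl libraries and the 2 libraries labelled Bmal1 KO. The enzymes, Pmel and Slc45a2 lie below 0 in both libraries labelled Bmal1 KO, Oca2 and Gpnmb lie above, and Rab38 has 1 library on each side.

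Within the YUMM lines and aC3, 12 to 14 members, among them Tyrp1, Dct, Pmel and Mlana, did not pass the filter in any of these fits, so that they could not be tested there. Tyr passed it with the hairpins, where it reached at most 14 counts in a library, and was not called. Mitf was called in no comparison among these groups. In YUMM2.1 it was at 14.4 and 14.2 CPM with EV, 16.1 and 17.7 with WT and 14.96 and 21.05 with dHLH. The members called were Gpnmb, Lyst, Rab38 at few counts, and, in 1 hairpin comparison, Mlph and Myo5a.

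Gpnmb (ENSMUSG00000029816, chr6:49036546-49070929, + strand) fell in YUMM2.1 cells with dHLH. It was at 81.2 and 90.1 CPM with EV, 96.8 and 89.8 with WT, and 34.4 and 39.95 with dHLH, so that both dHLH libraries lay below the 4 others. The log2 difference was -1.20 to EV (SE 0.14, edgeR adjusted p = 0.00401) and -1.32 to WT (SE 0.14, adjusted p = 0.00292). With the labels exchanged these were -1.26 and -1.27, and with both doubted libraries left out -1.14 and -1.27, all called. Lyst (ENSMUSG00000019726, chr13:13590397-13778803, + strand) rose, from 26.2 and 26.5 CPM with EV to 44.6 and 41.5 with dHLH (0.71, SE 0.15, edgeR adjusted p = 0.0256), with WT between them at 28.9 and 33.7. Exchanged labels gave 0.65 (adjusted p = 0.0133), leaving both out gave 0.71 (adjusted p = 0.13), and the call was lost without any 1 of the 4 libraries (adjusted p 0.0712 to 0.117).

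Together these were the 2 of 21 tested members called between dHLH and EV, where 13.2% of all genes were, 6.51% higher and 6.72% lower. Rab38, at 3.40 and 2.37 CPM with EV and 0.947 and 0.595 with dHLH (15 counts), gave -1.87 (SE 0.56, adjusted p = 0.0734). It was called with the labels exchanged (-2.05, adjusted p = 0.0127), which also called Vps33a, a HOPS subunit (0.60), and with the replicate number as a block, which gave 3 calls. Between dHLH and WT, Gpnmb was the 1 of 21 called, where 13% of all genes were, 6.44% higher and 6.6% lower. Lyst joined it with the labels exchanged (0.52, adjusted p = 0.0451), and Lyst and Hps5 with the replicate number as a block. WT against EV gave 0 of 21 by edgeR (0 at an unadjusted p under 0.05, 0 by DESeq2), and 0% of all genes were called. Exchanging the labels gave 0 members and 0.705% of all genes, leaving both out 0 members and 0.269%. The dHLH comparisons share their libraries and are not independent.

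Other genes moved far more between these groups. Sox10 was at 66.3 and 72.9 CPM with dHLH against 501 and 484 with EV (-2.82, SE 0.16), Ngfr fell by 2.14 and Col1a1 rose by 4.44 on the log2 scale. The 5 Schwann cell markers summed to 331 to 360 CPM with dHLH against 771 to 945 with EV, and the 7 fibroblast markers to 962 to 1130.4 against 154 to 320 CPM, with Lum at 0 in both dHLH libraries. Their part in the changes of Gpnmb and Lyst was not tested. Of 47 further pathway genes tested, 3 rose (Slc7a11, Sytl2, Anxa2) and 3 fell (Sox10, Kif13a, Ctsb) with dHLH, where 6.51% and 6.72% of all genes did. Kif13a, the motor that carries Tyrp1 out of endosomes, fell by 1.08.

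In aC3, the clone made to lack Bmal1, the same constructs moved neither gene past the threshold. Gpnmb was at 79.7 and 82.8 CPM with EV, 75.1 and 83.1 with WT and 86.8 and 94.9 with dHLH (dHLH to EV 0.15, SE 0.09, adjusted p = 0.349), and Lyst at 23.2 and 20.96, at 26.1 and 25.6 and at 20.4 and 22.6 CPM. For dHLH against EV 0 of 21 members were called by edgeR (1 at an unadjusted p under 0.05, 0 by DESeq2), where 10.9% of all genes were, 4.79% higher and 6.09% lower. WT against EV gave 0 of 21 (0 unadjusted, 0 by DESeq2) against 11.2% of all genes (4.92% higher, 6.28% lower), and dHLH against WT 0 of 21 (0 unadjusted, 0 by DESeq2) against 0.877% (0.435% higher, 0.442% lower). Tested directly in a fit of the lines, the dHLH effect on Gpnmb in aC3 minus that in YUMM2.1 was 1.37 (SE 0.17, edgeR adjusted p = 6.93e-05) and on Lyst -0.74 (SE 0.18, adjusted p = 0.0144), the 2 members called of 32, of which 21 passed the filter within aC3 and within YUMM2.1, where 11.4% of all genes were (6.97% higher, 4.41% lower). The Lyst difference was lost without YUMM2.1 dHLH replicate 1 (-0.69), aC3 EV replicate 1 (-0.67) or aC3 dHLH replicate 1 (-0.67). For Gpnmb this was 1.42 with labels exchanged and 1.30 with both doubted libraries left out. Sox10 did not fall in aC3 with dHLH (0.37, SE 0.09), and the fibroblast markers summed to 123 to 131 CPM against 92.5 to 96.2 with EV.

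In YUMM1.7, WT and dHLH parted. Gpnmb was at 141 and 135 CPM with EV, 106 and 94.7 with WT and 136 and 159 with dHLH. Both WT libraries lay below the 4 others, with -0.45 to EV (SE 0.08, edgeR adjusted p = 0.034), while dHLH lay 0.55 above WT (SE 0.08, adjusted p = 0.00101). Gpnmb was the 1 of 20 called in each, where 0.138% (0.0434% higher, 0.0941% lower) and 2.57% (1.08% higher, 1.49% lower) of all genes were. The first call was lost without EV replicate 1 (-0.41), EV replicate 2 (-0.48) or WT replicate 2 (-0.37), with the replicate number as a block (-0.45, edgeR adjusted p = 0.071) and in one fit of all 40 libraries (-0.46, edgeR adjusted p = 0.5). For dHLH against EV 0 of 20 were called by edgeR (1 at an unadjusted p under 0.05, 0 by DESeq2), against 0.63% of all genes (0.21% higher, 0.42% lower), with Gpnmb at 0.10. The dHLH effect in YUMM1.7 minus that in YUMM2.1 was 1.31 for Gpnmb (SE 0.17, edgeR adjusted p = 0.000209) and -0.69 for Lyst (SE 0.18, adjusted p = 0.0269), again 2 of 32, of which 20 passed the filter within YUMM1.7, where 8.69% of all genes were called (4.25% higher, 4.44% lower). Lyst was not called there with both doubted libraries left out (-0.69, adjusted p = 0.0566), nor without YUMM2.1 EV replicate 1 or 2, YUMM2.1 dHLH replicate 1, YUMM1.7 EV replicate 2 or either YUMM1.7 dHLH library (-0.76 to -0.58). Sox10 was at or under 1.52 CPM in all 6 libraries of this line.

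The line plot of 4 genes over the 18 groups shows these contrasts side by side.

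**Figure D4:**
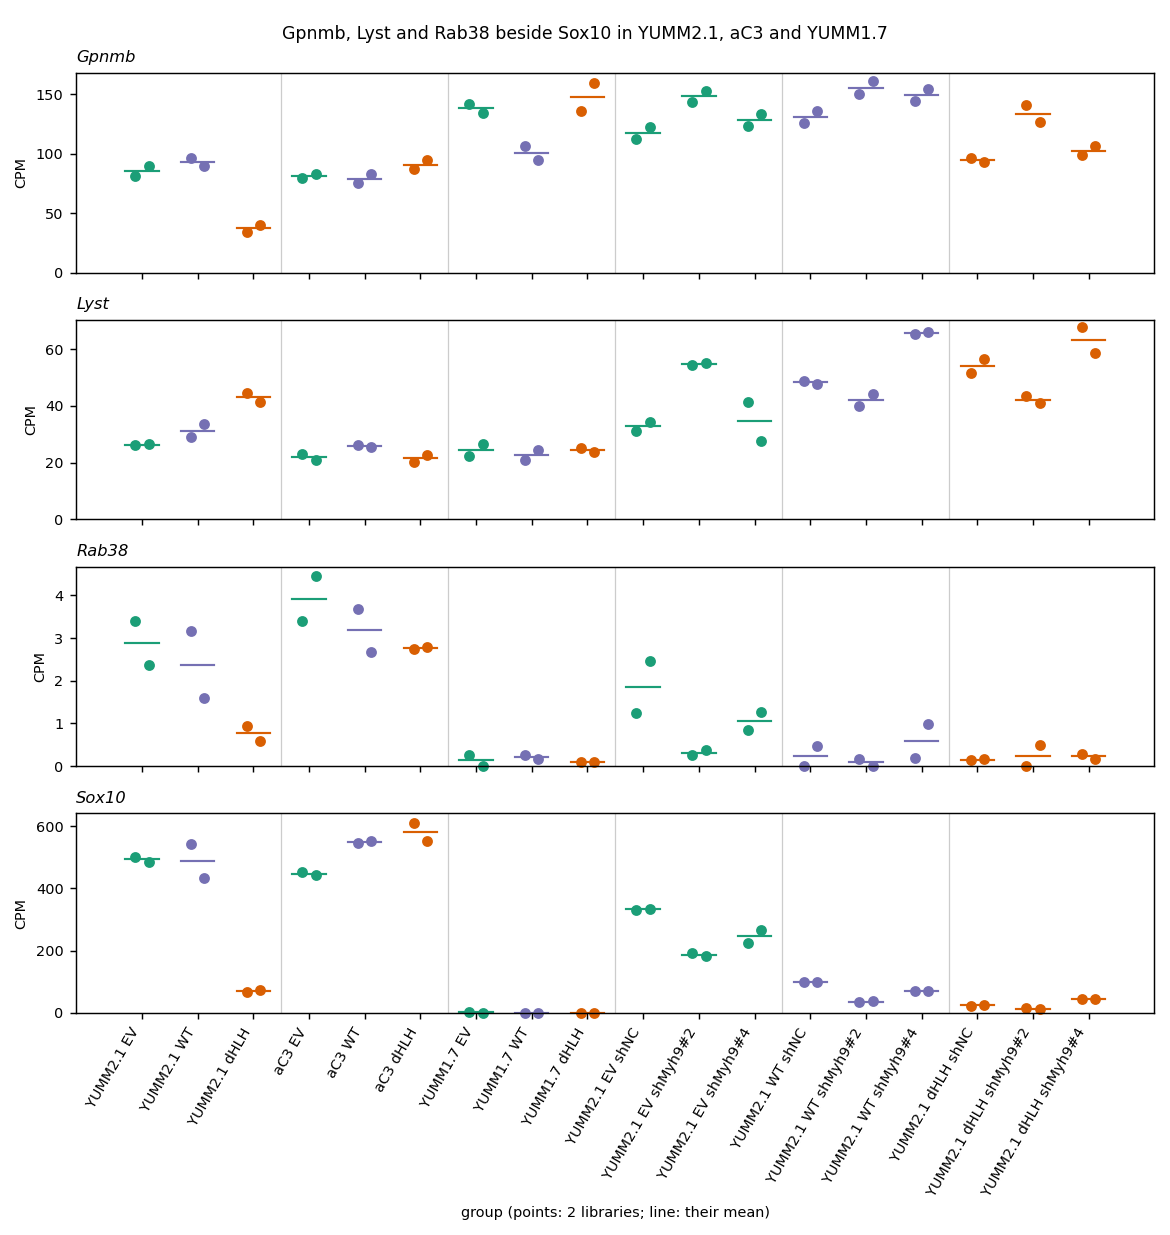
CPM of Gpnmb, Lyst, Rab38 and Sox10 in the 18 groups of YUMM2.1, aC3, YUMM1.7 and YUMM2.1 with hairpins, with points for the 2 libraries and a line at their mean. Gpnmb is lowest in YUMM2.1 dHLH at 34.4 and 39.95 CPM, where Sox10 is also down. Sox10 is lower still in YUMM2.1 dHLH with shNC and in YUMM1.7, where Gpnmb is higher. Lyst stays between 20.4 and 26.5 CPM in all aC3 and YUMM1.7 libraries.

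With the control hairpin shNC, YUMM2.1 cells again had more Lyst with dHLH. Here Lyst was also called with WT, which it was not without a hairpin. Lyst was at 31.2 and 34.3 CPM with EV, 48.7 and 47.9 with WT, and 51.8 and 56.6 with dHLH, with no overlap between EV and the others. It rose by 0.56 with WT (SE 0.16, edgeR adjusted p = 0.0153) and by 0.73 with dHLH (SE 0.16, adjusted p = 0.00199). The WT call was lost without EV shNC replicate 1 (0.50) or either WT shNC library (0.55 and 0.57). Gpnmb was at 113 and 122 CPM with EV, 125 and 136 with WT and 96.6 and 92.8 with dHLH, where both dHLH libraries were lowest (-0.30 to EV, SE 0.10, adjusted p = 0.0333, and -0.46 to WT, SE 0.10, adjusted p = 0.0221). Both Gpnmb calls were lost without any 1 of the 4 libraries each rests on (-0.37 to -0.25 and -0.52 to -0.40). Rab38 had 32 counts with EV and 3 with dHLH, a 12.9-fold difference with a counting interval of 4.03 to 65.8 (adjusted p = 0.0436), and this too was lost without any 1 library.

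In counts over 22 tested members, WT against EV with shNC gave 1 where 22.3% of all genes were called (11.7% higher, 10.6% lower), dHLH against EV 3 where 26.4% were (13.9% higher, 12.5% lower), and dHLH against WT 1 where 1.91% were (0.828% higher, 1.08% lower). Sox10 was at 330.0 and 334 CPM with EV, 98.7 and 99.9 with WT, and 22.7 and 26.1 with dHLH, and the fibroblast markers summed to 198 to 199, 631 to 692 and 922 to 926 CPM in the same order. Lyst lay in that order as well, while Gpnmb did not, being higher with WT than with EV in both libraries. Whether those markers had a part in it was not tested. Of 47 further pathway genes, 8 rose and 5 fell with dHLH, where 13.9% and 12.5% of all genes did. The 8 included Sox9 (1.52), Lamp1 (0.69) and Vps41 of HOPS (0.76), and the 5 included Rab7 (-0.44), Ctsb (-0.52) and Kif13a (-0.85).

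Knockdown of Myh9 was seen with shMyh9#2 (-1.51 with EV, -2.04 with WT, -1.69 with dHLH on the log2 scale) and less with shMyh9#4 (-0.52, -0.93 and -0.42). In EV cells Lyst rose with shMyh9#2, from 31.2 and 34.3 to 54.6 and 55.1 CPM (0.75, SE 0.16, edgeR adjusted p = 0.00721), the 1 of 22 members called where 6.65% of all genes were, 4.2% higher and 2.46% lower. The call was lost without EV shNC replicate 1 (0.68) or shMyh9#2 replicate 1 (0.75). Fibroblast markers summed to 393 to 407 CPM with shMyh9#2 (Dcn and Lum at 0) against 198 to 199 with shNC, and Schwann cell markers to 367 to 374 against 641 to 657 CPM, while Sox10 fell by 0.83 and Col1a1 rose by 3.40 on the log2 scale. Their part in the rise of Lyst was not tested. With shMyh9#4 Lyst was at 41.6 and 27.7 CPM, overlapping shNC, and 0 of 22 members were called by edgeR (0 at an unadjusted p under 0.05, 0 by DESeq2), against 1.71% of all genes, 1.45% higher and 0.256% lower. Gpnmb was at 144 and 153 CPM with shMyh9#2, above both shNC libraries (0.34, SE 0.10, adjusted p = 0.0501).

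In dHLH cells the 2 genes went differently. Lyst was at 43.5 and 41.0 CPM with shMyh9#2, below the 51.8 and 56.6 of shNC (-0.36, SE 0.15, edgeR adjusted p = 0.416), and the effect in dHLH minus that in EV was -1.11 (SE 0.22, adjusted p = 0.00862), the 1 of 22 members called where 3.29% of all genes were (1.1% higher, 2.2% lower). Without EV shNC replicate 1 it was -1.04 (adjusted p = 0.0509). Gpnmb rose with shMyh9#2 from 96.6 and 92.8 to 141 and 127 CPM (0.49, SE 0.10, adjusted p = 0.0365), the 1 of 22 called where 0.559% of all genes were (0.296% higher, 0.263% lower), and was lost without any 1 of the 4 libraries (0.42 to 0.56). With shMyh9#4, Mlph rose from 7.30 and 6.17 to 12.7 and 14.95 CPM (1.05, SE 0.27, adjusted p = 0.0145) and Myo5a from 174 and 168 to 219 and 249 CPM (0.48, SE 0.12, adjusted p = 0.0156), 2 of 22 where 15.1% of all genes were called (6.28% higher, 8.86% lower). These are partners in the tether, yet Rab27a, the third part, gave 0.69 (SE 0.30, adjusted p = 0.13). The 2 libraries with shMyh9#4 had totals of 3643332 and 6001340 counts and both calls were lost without either shNC library or shMyh9#4 replicate 2 (0.91 to 1.19 for Mlph, 0.37 to 0.51 for Myo5a). In the same comparison Sox10 rose by 0.92 and Ngfr by 1.05 on the log2 scale, the 5 Schwann cell markers summed to 357 to 401 against 204 to 233 CPM and the 7 fibroblast markers to 786 to 787 against 922 to 926 CPM. Their part in the rise of Mlph and Myo5a was not tested.

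In WT cells, shMyh9#2 gave 0 of 22 by edgeR (3 at an unadjusted p under 0.05, 0 by DESeq2), where 4.76% of all genes were called (2.35% higher, 2.41% lower), and shMyh9#4 gave 0 (2 unadjusted, 0 by DESeq2), where 0.236% were (0.0876% higher, 0.148% lower). Lyst was at 39.999 and 44.3 CPM with shMyh9#2, 65.3 and 66.1 with shMyh9#4 and 48.7 and 47.9 with shNC, so the hairpins lay on opposite sides of the control. All comparisons with 1 construct share its shNC libraries. Leaving out WT shNC replicate 1 gave 1 call with shMyh9#2.

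The genes whose levels most resembled the mean standardized profile of the 10 members made in pigment cells, by Pearson's r of log2(CPM + 1) over the 20 group means, were Fkbp6, Dok5, Fbln1, Tspan10, Pianp, Ankfn1, Car14, Tmem51, Rin3 and Megf6, none of them a member. In all, 82 of 14113 genes reached an r of 0.99. These 20 points share 1 feature, B16-F10 high and the other lines near 0, so r describes that split, and nothing in it orders the other 18 groups.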

How the data were processed

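RNA of 40 libraries (QuantSeq 3′ FWD, 100 ng of RNA, single 75-base reads) was aligned to mm10 with bowtie2 by the authors, who deposited RSEM estimated counts per Ensembl gene as whole numbers. The submitters' processing notes name RSEM 1.2.3, DESeq2 and mm10. The Ensembl release and strand setting were not given in the sources used here. A QuantSeq read marks the 3′ end, so longer transcripts do not gain counts by their length. Of the 34 members, 19 overlap another gene (10 on the same strand), where reads could be split or shared.

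Counts were tested in R 4.3.3 with edgeR 4.0.16 (TMM, filterByExpr, quasi-likelihood test, Benjamini-Hochberg over all genes, threshold 0.05), in 1 fit per line, 1 of the hairpin libraries and 1 across lines, and the scripts were tested on simulated data. Groups came from the sample labels. Alternatives were DESeq2 1.42.0, its size factors, no filter, a fit of all 40 libraries, the replicate number as a block, each library left out, and the doubted YUMM2.1 labels exchanged or left out. Deviations of same-numbered libraries correlated most in YUMM2.1 (mean r 0.316, lowest 0.180 over its group pairs). The single group pair of B16-F10 gave 0.102. The members and lists were chosen with earlier results of these data known. Values in each library are given for Mitf, Tyr, Tyrp1, Dct, Pmel, Mlana and members called with a log2 difference of at least 1. Counting intervals (95%) and floors (3 counts over a group) cover counting error only. Promoters came from RefSeq on GRCm38.p6, and symbols and gene positions from GENCODE M21. Part of the genotype of the YUMM lines is not reported here.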

Additional observations from a re-analysis of the deposited data

Results flagged for a closer look

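In 5 cases the effect of a construct or hairpin on a member differed between groups by the edgeR test of the difference itself, with Benjamini-Hochberg adjustment over all genes. For Gpnmb the dHLH effect in aC3 minus that in YUMM2.1 was 1.37 (SE 0.17, edgeR adjusted p = 6.93e-05), and in YUMM1.7 minus that in YUMM2.1 it was 1.31 (SE 0.17, edgeR adjusted p = 0.000209). For Lyst the same differences were -0.74 (SE 0.18, edgeR adjusted p = 0.0144) and -0.69 (SE 0.18, edgeR adjusted p = 0.0269). The aC3 and YUMM1.7 differences share the YUMM2.1 libraries. For Lyst, the shMyh9#2 effect in dHLH cells minus that in EV cells was -1.11 (SE 0.22, edgeR adjusted p = 0.00862).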

How the results depend on the processing

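No result changed direction under any alternative run, and the cause of the changes below was not tested. In counts of members called, B16-F10 KO against Ctrl (0) gave 1 by DESeq2, 2 with no filter, 2 in one fit of all 40 libraries and 0 to 19 with 1 library left out. YUMM2.1 dHLH against EV (2) gave 4 with the doubted labels exchanged, 1 with both libraries left out and 1 without any 1 library. YUMM2.1 dHLH against WT (1) gave 2 with no filter, 2 with labels exchanged, 3 in one fit and 3 with the replicate block. YUMM1.7 WT against EV (1) gave 0 with the replicate block, 0 in one fit and 0 to 1 with 1 library left out, and YUMM1.7 dHLH against WT (1) gave 2 with no filter. With shNC, WT against EV (1) gave 2 with no filter, 2 in one fit and 0 to 2 with 1 library left out. With shNC, dHLH against EV (3) gave 1 with no filter and 1 with any 1 library left out, and dHLH against WT (1) gave 0. EV shMyh9#2 (1) gave 2 by DESeq2, 2 in one fit and 0 to 1 with 1 library left out. Leaving out 1 library also gave 0 to 1 for aC3 dHLH against EV (0) and WT shMyh9#2 (0), 0 for dHLH shMyh9#2 (1), and 0 to 2 for dHLH shMyh9#4 (2). The dHLH difference between aC3 and YUMM2.1 (2) gave 1 to 3, that between YUMM1.7 and YUMM2.1 (2) gave 1 to 3, 1 with no filter and 1 with both doubted libraries left out, and the shMyh9#2 difference (1) gave 0 to 1. Where an arm kept 1 library, it was assumed to vary like the others.

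Single member calls were kept in 80 and lost in 7 cases by DESeq2, kept in 304 and lost in 64 with 1 library left out, and kept in 86 and lost in 1 with the replicate block. Outside YUMM2.1 the replicate numbers were taken as shared numbers only. There the mean correlation of deviations was 0.102 in B16-F10 (a single pair), 0.0532 in aC3, -0.00249 in YUMM1.7 and -0.00370 with hairpins. Depth limits Rab38 in YUMM cells and the enzymes there, which had few or no counts.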
